A study of Mus musculus with 12 samples.

Results

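The genes described here encode protease inhibitors, a cross-linking enzyme and sperm-coating proteins of seminal fluid, and were followed in the seminal vesicle of adult mice after exposure to a synthetic estrogen around birth. The list held 7 genes, Spink1 (also listed under its older name Spink3), Spinkl, Tgm4, Ceacam10, Sva, 9530003J23Rik and Serpine2. Members were the probe sets whose single symbol in the platform annotation was a listed gene, which gave 1 probe set each for 6 of the 7 genes, out of 30063 named genes in all. Serpine2, which encodes a serpin that inhibits thrombin and plasminogen activators, had no probe set under that rule and was not analysed here. All 6 measured genes passed the filter on low values and were among the 20102 genes tested.

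Male C57BL/6 mice gave seminal vesicle RNA at week 10 of age, which was hybridized to Affymetrix arrays, 12 in all. Wild-type (WT) mice and mice lacking estrogen receptor alpha (aERKO) had received either diethylstilbestrol (DES), a synthetic estrogen, or vehicle. DES was dissolved in corn oil and given subcutaneously, each pup receiving 2 µg daily from day 1, the day of birth, through day 5, and vehicle animals received the same volume of corn oil. The 4 groups were WT_vehicle, WT_DES, aERKO_vehicle and aERKO_DES, with 3 arrays each. All 4 groups therefore shared the strain, the sex, the age at collection and neonatal injection of corn oil. Neither the allele behind aERKO nor the cells in which the receptor was lost is stated by the labels, which also do not say whether separate animals gave the 3 samples of a group. A p-value therefore reflects sample-to-sample spread that could be purely technical.

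The seminal vesicle is an androgen-dependent gland whose epithelium secretes most of the volume of the ejaculate in rodents. After mating, transglutaminase from the coagulating gland cross-links the abundant seminal vesicle secretory proteins into a copulatory plug, while inhibitors of the Kazal, serpin and WFDC families hold proteases in the fluid in check. Several of the smaller proteins bind to sperm and are known to alter sperm motility, capacitation or calcium uptake.

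RefSeq gave a promoter window for 4 of the 6 measured genes in assembly GRCm38.p6. The 250 bases before the annotated start are shown for these 4, because they allow the androgen-type and estrogen-type elements near these genes to be compared. Capitals mark each match to AGAACA (the core hexamer of the androgen and glucocorticoid response element), to GGTCA (the core of the estrogen response element) and to TATAAA, on either strand. The windows lie at chr9:123034491-123034740 (plus strand) for Tgm4, chr7:24776917-24777166 (plus strand) for Ceacam10, chr6:42038144-42038393 (plus strand) for Sva and chr10:117238682-117238931 (minus strand) for 9530003J23Rik. Of 2 annotated starts of Ceacam10, the window before the upstream start is shown. Each sequence reads 5′ to 3′ on the strand of the gene.
Tgm4: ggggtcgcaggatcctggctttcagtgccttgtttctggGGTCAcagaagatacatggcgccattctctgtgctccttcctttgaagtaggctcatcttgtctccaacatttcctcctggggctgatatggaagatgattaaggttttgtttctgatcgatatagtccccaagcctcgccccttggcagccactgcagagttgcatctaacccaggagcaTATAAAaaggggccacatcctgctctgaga
Ceacam10: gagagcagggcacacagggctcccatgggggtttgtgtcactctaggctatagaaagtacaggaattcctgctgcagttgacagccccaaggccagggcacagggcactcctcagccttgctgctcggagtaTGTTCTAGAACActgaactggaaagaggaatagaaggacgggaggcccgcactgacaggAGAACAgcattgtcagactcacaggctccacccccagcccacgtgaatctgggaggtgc
Sva: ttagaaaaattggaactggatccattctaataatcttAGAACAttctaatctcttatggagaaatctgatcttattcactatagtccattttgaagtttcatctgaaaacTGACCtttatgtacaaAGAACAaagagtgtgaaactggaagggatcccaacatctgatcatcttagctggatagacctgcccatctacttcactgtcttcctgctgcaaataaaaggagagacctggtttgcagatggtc
9530003J23Rik: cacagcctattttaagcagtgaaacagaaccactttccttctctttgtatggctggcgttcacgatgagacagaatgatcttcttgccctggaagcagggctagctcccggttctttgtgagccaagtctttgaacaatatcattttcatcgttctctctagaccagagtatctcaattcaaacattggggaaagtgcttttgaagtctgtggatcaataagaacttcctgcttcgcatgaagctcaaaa

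AGAACA was found in the windows of Ceacam10 and Sva. In Ceacam10 it lay on the plus strand at 112 to 107 and at 59 to 54 bases before the start, and on the minus strand at 118 to 113. In Sva it lay at 213 to 208 and at 124 to 119 bases before the start, both on the plus strand. A match to AGAACA, whose reverse complement is TGTTCT, occurred in 16.1% of all 32851 windows of the same length. GGTCA, with the reverse complement TGACC, was present in 35.2% of all windows, in Sva at 140 to 136 bases before the start on the minus strand and in Tgm4 at 211 to 207 on the plus strand. TATAAA, with the reverse complement TTTATA, was present in 12.4% of all windows and, among these 4, in Tgm4 at 30 to 25 bases before the start. The window of 9530003J23Rik held none of the 3 short motifs. The full palindromes, in which AGAACA or GGTCA is followed after 3 unspecified bases by its reverse complement, were found in 0.00913% and 0.0639% of all windows and in none of these 4. Of the short motifs, AGAACA and GGTCA are parts of the palindromes and TATAAA is not. The marked matches do not overlap one another in these windows, and a match is a description of the letters and no evidence of binding.

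The authors' deposited values are normalized log2 levels of probe sets, so a difference of -1 is a 2-fold lower level. Array medians lay between 5.95 and 6.14 and array maxima between 14.46 and 14.54. Esr1, the gene of estrogen receptor alpha, checks the genotype labels: given vehicle it was at 7.75 ± 0.0795 in WT and 6.99 ± 0.106 in aERKO (SD, n = 3), and given DES at 7.66 ± 0.0965 and 6.90 ± 0.0904, with every aERKO array below every WT array. The summed level of 7 seminal vesicle secretory markers was 16.4 to 16.8 on the 12 arrays. The 6 measured members were themselves among the brightest probe sets, between 0.257 and 2.84 log2 units below the highest value of their array, whereas background controls averaged 5.20. With 3 arrays in a group, precision is limited by their number.

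**Figure D1:**
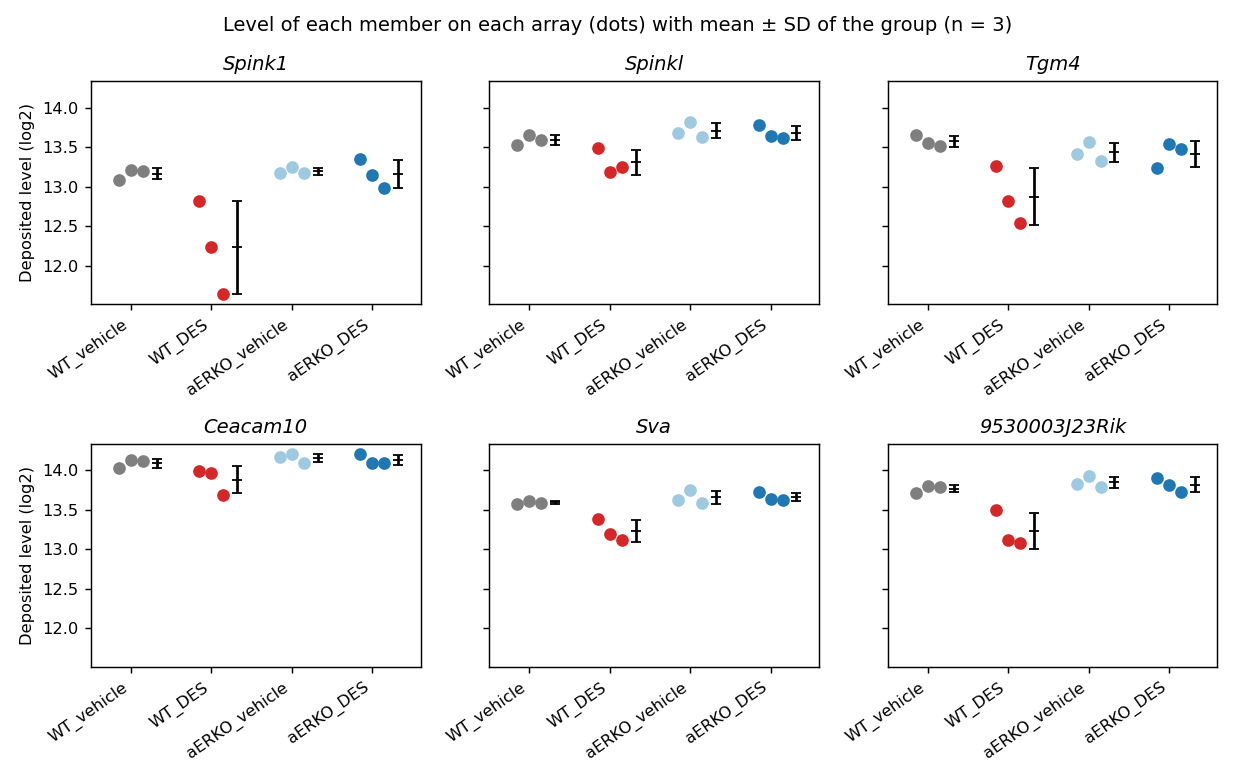
Deposited log2 level of each measured member on each array (dots, replicates 1 to 3 from left to right) in the 4 groups, with the mean and SD beside them (n = 3); the vertical axis is the same in all panels and does not start at 0. The WT_DES dots lie below the WT_vehicle dots for all 6 genes, most widely for Spink1 (11.64 to 12.82 against 13.09 to 13.21), while the 2 aERKO groups overlap.

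In WT mice, neonatal DES was followed in adulthood by lower levels of 5 of the 6 measured genes, namely Spink1, Tgm4, 9530003J23Rik, Sva and Spinkl, and by a difference for Ceacam10 that missed the threshold. The sizes ran from a log2 difference of -0.93 for Spink1 to -0.21 for Ceacam10, and the WT_DES and WT_vehicle arrays did not overlap for any of the 6. Across all genes tested 23.3% were called lower, and 35.1% lay lower in WT_DES without overlap. The members and the lists used below were chosen with earlier results of these data known, so their counts beside such shares are descriptions only. Calls are limma's, at a Benjamini-Hochberg adjusted p below 0.05. The median difference was -0.45 over the 6 genes and -0.05 over all genes tested. The members were part of a broad change, since 43.9% of all genes tested were called in either direction. This was a measurement of whole tissue, in which fewer cells of a type and less RNA per cell cannot be told apart.

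Among the inhibitors, Spink1 encodes a Kazal-type inhibitor of trypsin that in mice is made by the accessory sex glands as well as the pancreas and binds to sperm. On the WT_vehicle arrays its level was 13.09, 13.21 and 13.20 (mean 13.16 ± 0.0677, SD, n = 3). On the WT_DES arrays it was 12.82, 12.24 and 11.64 (12.23 ± 0.588). The WT_DES arrays were all below WT_vehicle and spread over 1.18 log2 units, against 0.122 in WT_vehicle. The aERKO_vehicle arrays read 13.17, 13.25 and 13.17 (13.19 ± 0.0456), and the aERKO_DES arrays 13.34, 13.15 and 12.99 (13.16 ± 0.179). The aERKO arrays with and without DES overlapped and all lay above the highest WT_DES array. In WT, Spink1 fell by 1.91-fold after DES (log2 -0.93 ± 0.21, SE; limma adjusted p = 0.00365), the 141st largest decrease of all genes tested.

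Spinkl encodes a Kazal-like protein of seminal vesicle secretion that is known to bind sperm and suppress capacitation. Its level was 13.53, 13.66 and 13.59 in WT_vehicle (13.59 ± 0.0631) and 13.49, 13.19 and 13.24 in WT_DES (13.31 ± 0.161). The WT_DES array numbered 1 lay just under the lowest WT_vehicle array, so the groups were narrowly separate. In aERKO the values were 13.68, 13.81 and 13.62 given vehicle (13.71 ± 0.0959) and 13.77, 13.63 and 13.62 given DES (13.67 ± 0.0864), with overlap. Spinkl fell in WT by 1.22-fold (log2 -0.28 ± 0.0871, SE; limma adjusted p = 0.0198). Leaving out WT_vehicle 2, WT_vehicle 3, WT_DES 2 or WT_DES 3 ended this call, with adjusted p-values of 0.0734, 0.0519, 0.0803 and 0.0527.

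Tgm4 encodes the prostate-type transglutaminase, the enzyme that cross-links seminal vesicle proteins into the plug and that is made mainly by the coagulating gland. It was at 13.65, 13.55 and 13.51 in WT_vehicle (13.57 ± 0.0731) and at 13.26, 12.82 and 12.54 in WT_DES (12.87 ± 0.361). All WT_DES arrays were lower than all WT_vehicle arrays. In aERKO_vehicle it was at 13.42, 13.57 and 13.32 (13.43 ± 0.124), and in aERKO_DES at 13.23, 13.54 and 13.48 (13.42 ± 0.163). The aERKO_DES array numbered 1 was slightly below the highest WT_DES array, which made Tgm4 the single member whose DES-treated groups overlapped between genotypes. In WT, Tgm4 fell by 1.62-fold (log2 -0.70 ± 0.148, SE; limma adjusted p = 0.00244), the 377th largest decrease. Because the coagulating gland is attached to the seminal vesicle, its markers bear on this gene. Of 3 tested prostate and coagulating gland markers, Gsdma fell by 1.44 and Pbsn by 0.60. Msmb went the other way, 1.35 higher in WT_DES, with a wide SE of 1.24 and no call (limma adjusted p = 0.388). On the hybridization-control scale Gsdma kept its call (-1.08) and Pbsn did not (-0.24, adjusted p = 0.287). The summed level of that list was 13.2 to 14.1 in WT_vehicle, 12.6 to 13.4 in WT_DES, 12.96 to 13.31 in aERKO_vehicle and 12.6 to 13.2 in aERKO_DES, and its part in the Tgm4 result was not tested.

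Ceacam10 encodes a small immunoglobulin-domain glycoprotein that seminal vesicle fluid passes to the sperm surface. Its level was 14.02, 14.13 and 14.11 in WT_vehicle (14.09 ± 0.0559) and 14.00, 13.96 and 13.68 in WT_DES (13.88 ± 0.171). WT_DES 1 and WT_vehicle 1 differed by less than the spread within either group, although no array crossed over. The values were 14.17, 14.20 and 14.10 in aERKO_vehicle (14.15 ± 0.0536) and 14.21, 14.09 and 14.10 in aERKO_DES (14.13 ± 0.0644). The difference in WT was -0.21 ± 0.0826 (SE), with a limma adjusted p of 0.0585 and a 95% interval of -0.39 to -0.03. Leaving out WT_DES 1 gave -0.26 with an adjusted p of 0.0339, and leaving out WT_DES 3 gave -0.11 with an adjusted p of 0.208. Ceacam10 was also the member nearest the top of the scale, 0.257 to 0.798 below the array maximum.

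Sva encodes seminal vesicle autoantigen, a secreted protein that binds phospholipids of the sperm membrane and is known to reduce motility. It was at 13.58, 13.62 and 13.59 in WT_vehicle (13.59 ± 0.0207) and at 13.39, 13.19 and 13.12 in WT_DES (13.23 ± 0.136), with a clear gap between the groups. In aERKO_vehicle it was at 13.62, 13.76 and 13.59 (13.66 ± 0.0881) and in aERKO_DES at 13.72, 13.64 and 13.62 (13.66 ± 0.0511), which overlapped. Sva fell in WT by 1.28-fold (log2 -0.36 ± 0.0757, SE; limma adjusted p = 0.0024). Of 3 Sva-like genes examined after the members' values were seen, Sval1 and Sval3 did not pass the filter, and Sval2 fell by 1.11 (adjusted p = 0.0235).

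9530003J23Rik, listed by RefSeq with the synonym Lyzf1, encodes a lysozyme-like secreted protein. Its level was 13.72, 13.80 and 13.78 in WT_vehicle (13.77 ± 0.0446) and 13.49, 13.12 and 13.08 in WT_DES (13.23 ± 0.228). The aERKO_vehicle arrays read 13.83, 13.92 and 13.79 (13.85 ± 0.0684) and the aERKO_DES arrays 13.91, 13.82 and 13.73 (13.82 ± 0.0912). The WT_DES arrays were below all other 9 arrays. The gene fell in WT by 1.45-fold (log2 -0.54 ± 0.0989, SE), and its limma adjusted p of 0.000979 was the lowest of the 6 members. Leaving out any 1 of the 12 arrays kept the calls in WT of Spink1, Tgm4, Sva and 9530003J23Rik.

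**Figure D2:**
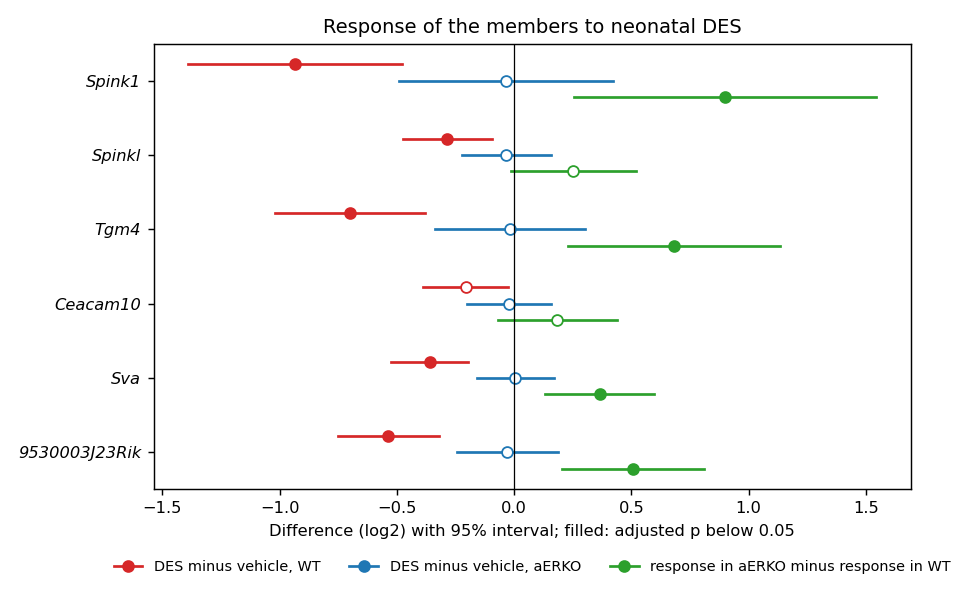
Log2 difference of DES from vehicle in WT (red) and in aERKO (blue), and the difference between these responses (green), for each measured member, with 95% intervals from limma and filled symbols at an adjusted p below 0.05. The WT values run from -0.93 to -0.21, the aERKO values from -0.03 to 0.01, and 4 of the 6 differences between responses are filled.

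How the arrays were put on a common scale changed most of these calls. The 4 spiked hybridization controls, which should be equal on all arrays, differed by -0.357 on average between WT_DES and WT_vehicle in the deposited values. Their mean also varied within groups, from 11.19 to 11.50 in WT_DES and from 11.36 to 11.76 in aERKO_DES. When each array was shifted to equalize these controls, the all-gene median went from -0.05 to 0.31. Spink1 was then the single member still called (log2 -0.58, adjusted p = 0.0098), and Tgm4 and 9530003J23Rik had differences of -0.34 (adjusted p = 0.0995) and -0.18 (0.334). Sva was at -0.0021 (adjusted p = 0.992), and Spinkl and Ceacam10 had opposite signs, at 0.07 and 0.15 (adjusted p = 0.703 and 0.439). Over all genes the split of calls moved with the scale, from 4152 higher and 4677 lower as deposited to 8345 higher and 350 lower. Shifting the arrays to their background controls, an alternative chosen after the data were seen, also left Spink1 alone (-0.50, adjusted p = 0.0372). With quantile normalization, with equal medians, or with equal medians of the brightest genes, all 6 members were called lower. Lower calls over all genes were also more numerous on these scales, with 7142, 7115 and 6896 lower against 3515, 3404 and 2806 higher.

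**Figure D3:**
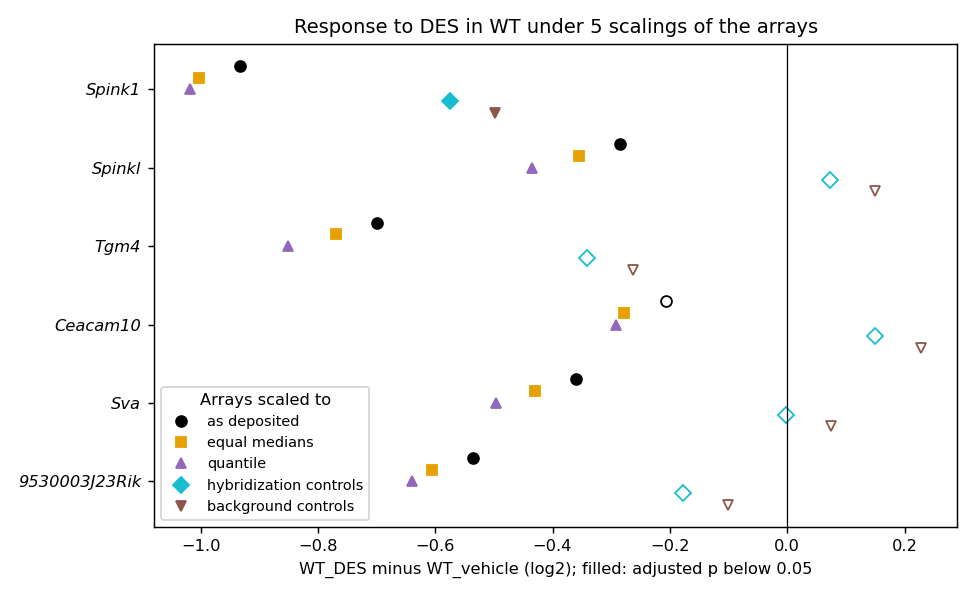
Log2 difference between WT_DES and WT_vehicle for each measured member under the deposited scale and 4 other scalings of the arrays, with filled symbols at an adjusted p below 0.05. Spink1 stays filled on all 5 scales, from -1.02 to -0.50, while Spinkl, Ceacam10 and Sva reach 0 or cross it when arrays are matched on their control probe sets.

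Differences among the members within an array do not depend on any shift of that array. They can still depend on an effect of scale that varies with the level, which was not tested. In WT_vehicle, Spink1 had the lowest mean of the measured members (13.16) and Ceacam10 the highest (14.09). For each gene, the mean of the other 5 members on the same array was subtracted, and this value was compared between groups with an exact two-sided permutation test, for which 0.1 is the smallest p with 3 arrays against 3. From WT_vehicle to WT_DES this relative level moved by -0.52 for Spink1 and by -0.23 for Tgm4, and by 0.36 for Ceacam10 and 0.26 for Spinkl, each with exact p = 0.1 and no overlap of the groups. Adjusted over the 24 tests of this family, each of these p-values was 0.267. For Sva the move was 0.17 (exact p = 0.2, adjusted p = 0.369) and for 9530003J23Rik -0.04 (exact p = 0.6, adjusted p = 0.847). With 3 arrays in each group no such test could pass 0.05, and because each value subtracts the other members, a larger decrease of one gene raises the relative level of the rest. Without DES, the relative levels of 3 genes also did not overlap between genotypes, each with exact p = 0.1 and adjusted p = 0.267. The aERKO_vehicle minus WT_vehicle value was -0.21 for Tgm4, close to its move with DES in WT, 0.096 for Spinkl and 0.052 for 9530003J23Rik. Given DES, the groups overlapped for Tgm4, Spink1, 9530003J23Rik and Sva, with aERKO_DES minus WT_DES values of 0.03, 0.49, 0.08 and -0.11 (exact p = 0.8, 0.2, 0.3 and 0.4). They did not overlap for Ceacam10, at -0.32, and Spinkl, at -0.18 (each exact p = 0.1, adjusted p = 0.267).

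**Figure D4:**
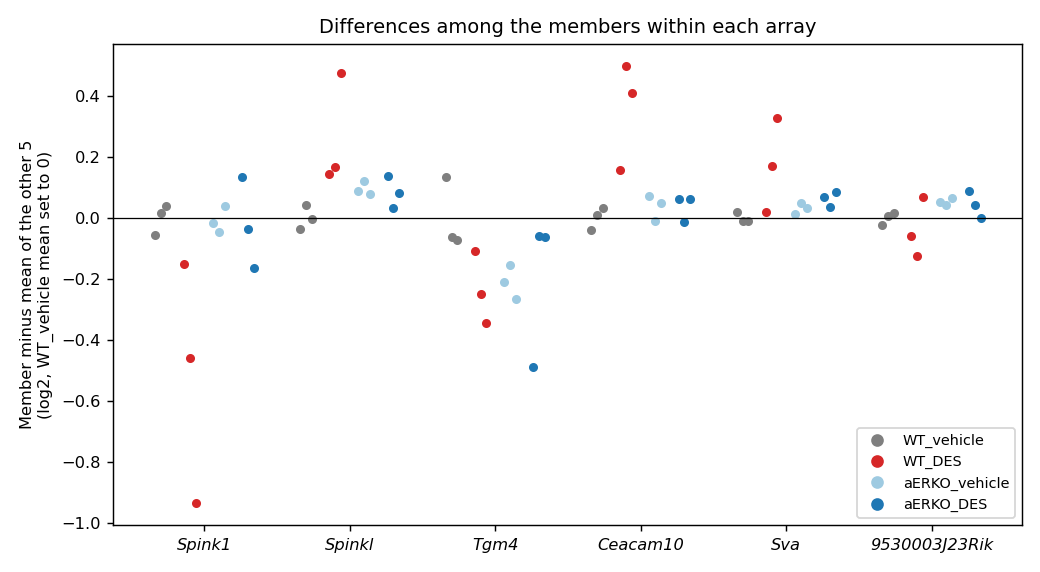
Level of each member minus the mean of the other 5 on the same array (log2), with the WT_vehicle mean of each gene set to 0; each dot is 1 array. In WT_DES the mean moves by -0.52 for Spink1 and by 0.36 for Ceacam10, with no overlap with WT_vehicle, whereas the aERKO groups given DES and vehicle overlap for all 6 genes.

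In aERKO mice, no measured member was called after DES. The 6 differences lay between -0.03 and 0.01, and the groups overlapped for every member, whereas 4.56% of all genes lay lower and 1.56% higher in aERKO_DES without overlap. Limma called 0 of 20102 genes in this comparison (0%), with 264 genes but no member at an unadjusted p below 0.05. The 95% interval for Spink1 reached from -0.49 to 0.42 and that for Sva from -0.16 to 0.17, so differences within such bounds were not excluded by these arrays. These intervals use a spread pooled over the 4 groups. For Spink1 the SD was 0.588 in WT_DES, against 0.0456 in aERKO_vehicle and 0.179 in aERKO_DES. The same pooled spread enters the tests in WT and of the difference between responses. The WT difference of Spink1, -0.93, lies outside its aERKO interval, and that of Sva, -0.36, lies outside its own.

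The difference between the responses was tested directly, as the response in aERKO minus that in WT. It was positive for all 6 members and called for 4, against 9.16% of all genes tested called in that direction. The values were 0.90 ± 0.297 (SE; limma adjusted p = 0.0459) for Spink1, 0.68 ± 0.209 (0.0338) for Tgm4, 0.51 ± 0.140 (0.0213) for 9530003J23Rik and 0.36 ± 0.107 (0.0282) for Sva. Spinkl, at 0.25, and Ceacam10, at 0.18, were not called (adjusted p = 0.148 and 0.257). These calls were near the threshold. The number of members called was 0 without WT_vehicle 2 or without WT_DES 2, and 1 without WT_vehicle 1, WT_vehicle 3, aERKO_vehicle 1, aERKO_vehicle 3 or aERKO_DES 2. It was 2 without aERKO_DES 1 and 3 to 5 without any of the other arrays, and it was 0 when arrays were matched on the hybridization controls, where all genes split into 133 higher and 2806 lower in place of 1841 and 2838.

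Without DES, no member was called between the genotypes. The aERKO_vehicle minus WT_vehicle differences ran from -0.14 for Tgm4 to 0.12 for Spinkl, and the groups overlapped for all 6, where 5.74% of all genes lay lower and 6.42% higher in aERKO_vehicle without overlap. Limma called 5 of all genes tested (0.0249%), and at an unadjusted p below 0.05 there were 864 genes and no member. Given DES, all 6 members were called higher in aERKO than in WT, where 27.5% of all genes tested were called higher. The differences, which share the WT_DES arrays with the comparison of DES and vehicle in WT, were 0.93 for Spink1, 0.59 for 9530003J23Rik, 0.54 for Tgm4, 0.43 for Sva, 0.37 for Spinkl and 0.25 for Ceacam10. For 5 of the 6, all but Tgm4, the arrays of the groups were separate, against 29.7% of all genes that lay higher in aERKO_DES without overlap. Matched on the hybridization controls, 1 member was called, Spink1, and all genes split into 553 higher and 5825 lower in place of 5529 and 4954. Ceacam10 lost its call without WT_DES 3 (0.15, adjusted p = 0.0789) and without aERKO_DES 1 (0.21, adjusted p = 0.0737).

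The partners of these proteins were followed through lists of related genes, beside 20.7% of all genes tested called higher and 23.3% called lower after DES in WT. Seminal vesicle secretory proteins include the substrates of the plug, but not every gene of this list, which also holds Pate4, need encode one. None of the 8 tested genes rose after DES in WT, while 4 fell: Svs1 by 0.42, Svs2 by 0.36, Svs6 by 0.26 and Pate4 by 0.24. The others were Svs3a at -0.20 (adjusted p = 0.0541), Svs3b at -0.13, Svs4 at -0.06 and Svs5 at -0.01. The list's median was -0.22, against -0.05 for all genes. As for the members, these calls depended on the scale: matched on the hybridization controls 0 of 8 were called, and with equal medians 6 were.

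Genes of the 3 inhibitor families were counted next. Of 11 further Kazal inhibitors 4 were tested, with a median of -0.31, and Spink11 fell by 0.78, a call not kept on the hybridization-control scale (-0.42, adjusted p = 0.0531). Of 15 tested WFDC proteins, small whey-acidic-protein inhibitors, 3 rose and 2 fell, with a median of 0.01. Wfdc17 rose by 1.78, Wfdc2 by 0.42 and Wfdc15b by 0.35, while Eppin, which coats sperm and binds semenogelin in humans, fell by 0.33 and Wfdc1 by 0.18. The decreases of Eppin and Wfdc1 became 0.02 and 0.17, neither called, on the hybridization-control scale. Of 18 tested serpins 10 rose and 1 fell, with a median of 0.59. Not every serpin inhibits proteases: Serpinb5 and Serpinh1 (0.57), which rose, and Serpina6 (-0.33), which fell, are not known as protease inhibitors. The largest increases were those of Serpina3n, an acute-phase serpin, at 4.50, of Serping1, the inhibitor of complement C1, at 1.83, of Serpinb5 at 1.40 and of Serpina3f at 1.30.

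Other enzymes of the members' families were called in both directions. Among 5 tested transglutaminases, F13a1, the catalytic subunit of plasma factor XIII, rose by 2.13 and the widely expressed Tgm2 by 1.10, while Tgm6 fell by 0.30, a call lost on the hybridization-control scale (0.05). Among 4 tested members of the lysozyme family, whose median was 1.78, Lyz2 rose by 4.13 and Lyz1 by 3.71, and Spaca3, an acrosomal lysozyme-like protein, fell by 0.31, also lost on that scale (0.05). Lyz2 is at the same time a macrophage marker of the list given below. Of 8 tested Ceacam genes 0 were called by limma, with 3 at an unadjusted p below 0.05, and the median was -0.14; with equal medians 3 were called lower.

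Proteases that such inhibitors target gave a mixed picture, with 4 of 27 tested genes higher, 6 lower and a median of -0.09. The tissue-type plasminogen activator gene Plat rose by 1.49, whereas the urokinase gene Plau fell by 1.09 and that of the membrane-anchored protease Prss8 by 0.74, and tissue kallikrein Klk1 rose by 0.54. These 4 calls were kept on the hybridization-control scale, on which 9 were higher and 2 lower. Plau was at 10.15 ± 0.263 (SD, n = 3) and 9.06 ± 0.290 in WT given vehicle and DES, and at 10.21 ± 0.0944 and 10.15 ± 0.137 in aERKO. Of 16 tested genes of blood coagulation 10 rose and 2 fell, with a median of 0.54. The largest increases were those of Thbs1, the platelet and matrix protein thrombospondin, at 2.59, of the anticoagulant cofactor Pros1 at 1.66, of tissue factor F3 at 1.51 and of F5 at 1.10.

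**Figure D5:**
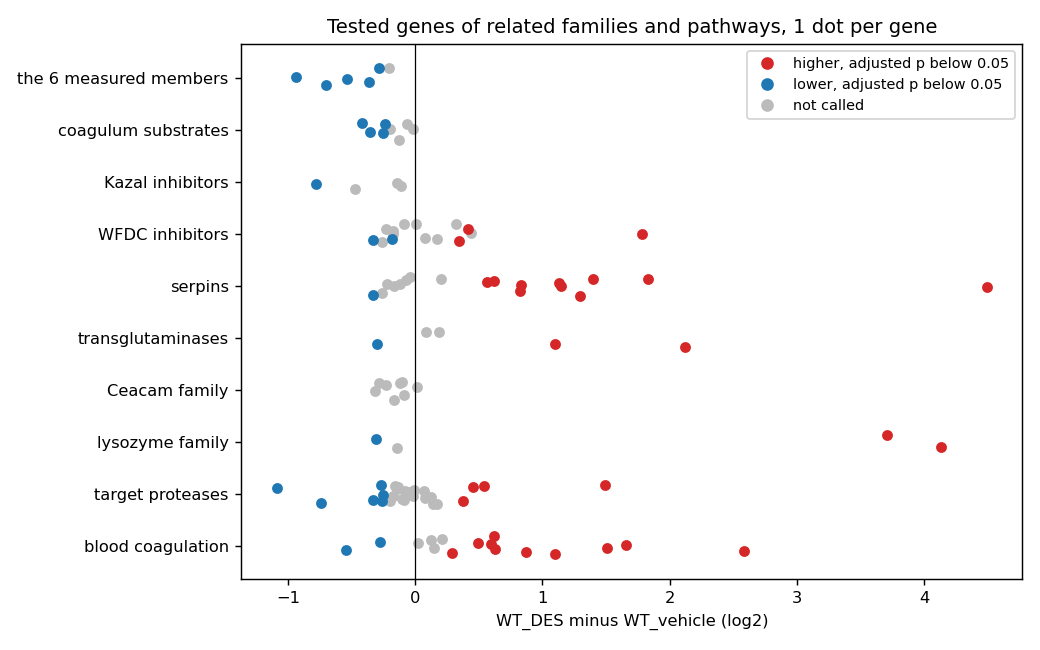
Log2 difference between WT_DES and WT_vehicle for each tested gene of the members' families and pathways, 1 dot per gene, coloured by limma's call on the deposited scale. The 6 members lie between -0.93 and -0.21, while serpins, lysozymes and blood coagulation genes extend to the right, up to 4.50 for Serpina3n.

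In aERKO mice limma called 0 of the 105 tested genes of the 9 lists after DES, and 0 in aERKO against WT given vehicle, with 1 and 7 at an unadjusted p below 0.05. In the test of the difference between responses, aERKO minus WT, 10 serpins and 10 blood coagulation genes had a called negative value. Of all genes tested 14.1% were called in that direction. The largest in size were -4.35 for Serpina3n and -2.43 for Thbs1. Of the seminal vesicle secretory proteins Svs2 was called in the other direction (0.34, adjusted p = 0.0411), as were Plau at 1.03 and Prss8 at 0.53. On the hybridization-control scale Plau kept its call (0.81, adjusted p = 0.0108), while Svs2 (0.11, adjusted p = 0.825) and Prss8 (0.30, adjusted p = 0.390) did not.

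Markers of other cell types moved with the members' decreases in WT_DES. All 8 tested macrophage markers and all 6 neutrophil markers rose, with medians of 2.47 and 3.46. All 6 genes of the basal epithelial list and all 5 tested fibroblast markers also rose, with medians of 2.02 and 1.82. The basal list includes Ly6d (3.30) and Krt4 (2.92), which are not specific to basal cells. Its other genes were Krt15 (2.42), Krt5 (1.62), Krt14 (0.74) and Trp63 (0.45). In WT_vehicle the log2 of the summed level was 10.9 to 11.2 for the macrophage list and 8.17 to 8.20 for the neutrophil list. It was 10.8 to 10.9 for the basal list and 11.2 to 11.6 for the fibroblast list. In WT_DES these sums were 13.9 to 14.3, 12.1 to 12.8, 12.7 to 13.1 and 13.03 to 13.52. They were 10.91 to 10.99, 8.07 to 8.30, 10.7 to 10.8 and 11.1 to 11.2 in aERKO_vehicle, and 10.9 to 11.3, 8.15 to 8.31, 10.6 to 10.8 and 11.2 to 11.4 in aERKO_DES, without the gap seen in WT. Of 8 smooth muscle markers 6 fell, and of 10 luminal epithelial markers 6 rose and 3 fell. The 7 secretory markers all belong to the list of secretory proteins above, and the 4 that fell are the same Svs1, Svs2, Svs6 and Pate4. On the hybridization-control scale none of the smooth muscle, luminal and secretory decreases was called, while the increases counted above for macrophage, neutrophil, basal, fibroblast and luminal markers were as many. Of 4 tested pancreatic markers, which bear on Spink1, 1 was lower (Cpa1, -0.28; 0.072 and not called on the hybridization-control scale), and their summed level was 8.40 to 8.93 on all arrays. The part of these changes in the members' decreases was not tested.

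The profiles of the members were compared by their root mean square difference, which reflects the size of a change as well as its pattern. Over the 12 arrays, with each profile centred on its own mean, the closest pair was Spinkl and Sva, at 0.0470 log2 units, and the farthest was Spink1 and Ceacam10, at 0.355. For members whose group means spanned at least 0.5, the 3 genes with the most similar profile among all genes tested were found by the same measure. For Spink1 they were Gspt2, a translation termination factor (0.120), Plpp1, a phospholipid phosphatase (0.127), and 4930412O13Rik (0.127). For Tgm4 they were 9530053A07Rik (0.0593), Dnajc10, a disulfide reductase of the endoplasmic reticulum (0.0761), and Zbtb10, a zinc finger protein (0.0977). For 9530003J23Rik they were Kdm1b, a histone demethylase (0.0381), Eml1, a microtubule-associated protein (0.0429), and Nucb2, a calcium-binding secretory protein (0.0464).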

How the data were processed

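RNA from 12 seminal vesicle samples, 300 ng of each per the labels' protocols, was hybridized to Affymetrix arrays. Per the submitters' processing notes, the authors used RMA and Affymetrix Expression Console to make the deposited log2 value of each probe set. Their versions, their settings and the build were not given in the sources used here. RMA subtracts background, normalizes arrays to one another and summarizes probes, so a broad change can shift other genes. Groups came from the sample titles. Of 72688 probe sets, 30604 had 1 symbol in the platform annotation, 2146 several and 39938 none; 1135 symbols were updated through RefSeq (GRCm38.p6), and a gene was represented by its brightest probe set. Genes above the array median on at least 3 of 12 arrays were tested (20102).

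Differences were tested with limma 3.58.1 (lmFit and eBayes, R 4.3.3), all arrays in 1 fit, two-sided, with Benjamini-Hochberg adjustment over all genes tested in each of 5 comparisons; residual degrees of freedom were 8 and prior ones 4.33. The fit was tested on simulated data. Relative levels within arrays used scipy 1.17.1. The members, gene lists (named by size of the called difference, up to 4 per list) and cell type markers were chosen with earlier results of these data known; the Sva-like genes and 2 of 25 alternatives were added after the values were seen. Alternatives covered filters, probe sets, variance moderation, array weights, scaling, a replicate block and each array left out. Promoter motifs were searched on both strands.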

Additional observations from a re-analysis of the deposited data

Results flagged for a closer look

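By limma's interaction term, the log2 difference of DES from vehicle was called higher in aERKO than in WT for 4 of the 6 members. Of all genes tested 9.16% were called higher. For the members this difference was negative in WT and between -0.03 and 0.01 in aERKO. The difference, aERKO minus WT, was 0.90 for Spink1 (adjusted p = 0.0459), 0.68 for Tgm4 (adjusted p = 0.0338), 0.36 for Sva (adjusted p = 0.0282) and 0.51 for 9530003J23Rik (adjusted p = 0.0213). In each case the 3 WT_DES arrays lay below the 3 WT_vehicle arrays and the aERKO groups overlapped. None of the 4 was called when arrays were matched on the hybridization controls or on the background controls. With 1 array left out at a time, the number of members called ran from 0 to 5. Groups of 3 arrays are too small for a test of single outlying samples.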

How the results depend on the processing

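The 25 alternatives gave 750 values for the members, of which 678 kept their direction and their side of the threshold (a change of sign between values that were not called is counted among these), 57 lost the threshold, 9 gained it and 6 changed sign. Matching arrays on the hybridization controls left 1 member called after DES in WT (deposited scale, 5), 0 in the difference between responses (4) and 1 in aERKO_DES against WT_DES (6); matching them on the background controls gave 1, 0 and 1. Changes of sign were Spinkl in WT at 0.072 with the hybridization controls and 0.15 with the background controls, and with the latter also Sva in WT at 0.075, Sva in the difference between responses at -0.019, and Spinkl and Ceacam10 in aERKO_DES against WT_DES at -0.040 and -0.16. The background controls and the brightest genes as scales were chosen after the data were seen. In WT, array weights gave -0.53 for Spink1, -0.44 for Tgm4, -0.13 for Ceacam10 and -0.36 for 9530003J23Rik, each more than 1.5 times smaller, and ended the call of Spinkl (-0.16, adjusted p = 0.066). Leaving out 1 array at a time gave 4 to 6 members called after DES in WT, 0 to 5 in the difference between responses, 5 to 6 in aERKO_DES against WT_DES, and 0 in both other comparisons.

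Same-numbered samples deviated together in 6 of 18 pairs (correlation above 0.1), which were numbers 2 and 3 among WT_DES, aERKO_vehicle and aERKO_DES. Their correlations ran from 0.18 to 0.52, while those of number 1 among these groups ran from -0.36 to 0.0998. Since 3 of 12 samples correlated best with their own number, the numbers were not taken to pair the samples, though a shared effect was not excluded. The fit with the replicate block called 6 members after DES in WT, where Ceacam10 reached an adjusted p of 0.0459, 4 in the difference between responses and 6 in aERKO_DES against WT_DES.

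Counts of all genes called moved by over 1.5 times in these cases. After DES in WT 14039 were called with the background controls (8829 on the deposited scale). In the difference between responses 8164 were called with array weights, 2939 with the hybridization controls and 8084 with the background controls (4679). In aERKO_DES against WT_DES 6378 were called with the hybridization controls (10483), and without DES 8 with only the groups compared, 80 with array weights, 14 with the hybridization controls and 0 to 6 with 1 array left out (5). After DES in aERKO, 1 gene was called without aERKO_DES 1 or aERKO_DES 2 (0). With the background controls the calls split into 13690 higher and 349 lower in WT, 130 and 7954 in the difference between responses, and 375 and 12563 in aERKO_DES against WT_DES.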
